A study of Homo sapiens with 12 samples.

Results

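The EGFR family was followed through RAS-induced senescence and XPO7 knockdown by reading 10 genes, found by their symbols, out of the 62069 genes of the count table. They were the ligand genes HBEGF, AREG, EREG, TGFA, BTC and NRG1, the receptor genes EGFR, ERBB2 and ERBB3, and ERRFI1, which encodes an inhibitor of these receptors. The RNA-seq libraries were made from a line of human lung fibroblasts, IMR90 ER:RAS, in which RAS is joined to the hormone-binding part of the estrogen receptor and is switched on by 4-hydroxytamoxifen (4OHT), a setting that gives oncogene-induced senescence (OIS). There were 4 groups of 3 libraries, all from cells at passage 13 and cultured for 7 days with a medium change on day 4. Non-induced and induced cells carried what the study calls the vector, its nontargeting control in other panels, and cells of the shXPO7_3 and shXPO7_5 groups expressed an shRNA against the nuclear transport receptor gene XPO7. The induced, shXPO7_3 and shXPO7_5 groups received 100 nM 4OHT and were taken 5 days after induction. The labels give the non-induced libraries the same day, without the drug. No 4OHT-treated cells without ER:RAS were among the libraries. Effects of RAS and of the drug itself therefore cannot be told apart, and RAS induction here stands for both. No non-induced cells with an shRNA were among the libraries, so the knockdown was compared only within induced cells, and all comparisons of an shRNA used the same 3 induced libraries. Whether the 3 libraries of a group stem from different cultures is stated by neither the labels nor the study. The p-values therefore rest on the spread among libraries, and that spread may be only technical. Replicates are called by the letters of the labels (T, A and C or B).

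EGF-like ligands are made as membrane-anchored precursors and are released by metalloproteases such as ADAM17. HBEGF, AREG, EREG, TGFA and BTC bind EGFR, HBEGF, EREG and BTC also bind ERBB4, and NRG1 binds ERBB3 and ERBB4, while ERBB2 has no ligand of its own and pairs with the other receptors. The receptors signal through RAS and ERK, and several ligand genes and ERRFI1 are known to be transcribed in response to that same signal, ligands as a forward loop and ERRFI1 as a brake that binds the receptor kinase domain and blocks it.

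The promoters of AREG and EREG are shown because these 2 genes rose most of the members when RAS was induced and lie next to each other on chromosome 4. In the GENCODE release 29 annotation of GRCh38, EREG spans 74365143 to 74388751 and AREG 74445134 to 74455009 on the plus strand, with 56382 bp between them, and EPGN and BTC are the neighbours on either side. The 250 bases before each RefSeq start (GRCh38.p14, plus strand, chr4:74444886-74445135 for AREG and chr4:74364895-74365144 for EREG) are printed 5′ to 3′, and capitals mark matches to motifs.
AREG: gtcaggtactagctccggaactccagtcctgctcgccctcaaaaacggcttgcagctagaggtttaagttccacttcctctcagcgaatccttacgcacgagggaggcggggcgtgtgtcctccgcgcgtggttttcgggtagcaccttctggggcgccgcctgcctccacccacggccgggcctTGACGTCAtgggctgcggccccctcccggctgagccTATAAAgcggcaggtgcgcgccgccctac
EREG: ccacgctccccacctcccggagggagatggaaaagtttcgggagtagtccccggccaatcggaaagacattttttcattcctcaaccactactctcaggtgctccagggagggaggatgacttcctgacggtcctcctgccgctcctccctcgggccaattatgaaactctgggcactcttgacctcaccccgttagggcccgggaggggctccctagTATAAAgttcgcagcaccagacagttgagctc
The motifs searched, on both strands, were the AP-1 motif TGANTCA, the cyclic AMP response element (CRE) TGACGTCA and the TATA motif TATAAA, and the matches did not overlap. AREG held a CRE match that begins 65 bases before the start and a TATA match that begins 29 bases before it. EREG held a TATA match that begins 32 bases before its start and no match to the other motifs. Of 35116 promoters of the same length, 1.65% held the CRE, 10.7% the TATA and 6.57% the AP-1 letters. RefSeq promoters were at hand for 8 of the 10 members, with NRG1 and ERBB3 as the exceptions. HBEGF and ERRFI1, which also rose on induction, held no match, and neither did TGFA and BTC. ERBB2, which fell, held 1 AP-1 match. An EGFR promoter held 2 AP-1 and 2 TATA matches, and another held none. The matches describe letters only and were not tied to binding of any factor.

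XPO7, the target of the knockdown, was checked first. It averaged 134 ± 7.01 CPM (counts scaled to library size by TMM, SD, n = 3) in non-induced cells and 137 ± 8.81 CPM in induced cells, against 27.7 ± 1.14 CPM with shXPO7_3 and 52.2 ± 1.62 CPM with shXPO7_5, which is 20.3% and 38.2% of the induced mean. Libraries held 28534141 to 60397769 counts. The 8 fibroblast markers were all measured, with a summed level of 16687 CPM or more in every library, the sum being higher in non-induced cells (24000 to 27853 CPM) than in induced cells (16687 to 18143 CPM). The summed epithelial, endothelial and blood markers reached at most 6.85, 14.8 and 0.68 CPM in any library. Of these lists KRT5, KRT14, PECAM1, CDH5 and CD3E were at 0 in all 12 libraries, while TEK (12.4 CPM in non-induced and 6.31 in induced cells), VWF (2.22 and 3.14) and CLDN4 (5.59 and 1.36) were detected. The libraries also differed in how their values leaned on GC content, which is given with EREG.

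Of the 10 members, 8 passed edgeR's filter on low counts. TGFA and BTC did not. TGFA held 6 counts over all 12 libraries, spread over 4 of them with at most 2 in any library, and 0 in the non-induced libraries. BTC also held 6 counts in 4 libraries, with at most 2 in a library and 0 in the induced ones. A count of 0 allows up to 3 counts in a library, so neither ligand could be compared between groups at this depth.

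RAS induction (induced against non-induced cells) changed 7 of the 8 members tested, 5 of them upwards and 2 downwards, where 50.9% of all 15284 genes tested were called (24.8% higher and 26.1% lower, edgeR quasi-likelihood test, Benjamini-Hochberg adjusted p under 0.05). The 4 ligand genes AREG, EREG, NRG1 and HBEGF and the inhibitor gene ERRFI1 rose, ERBB2 and ERBB3 fell, and EGFR was not called. For the same 7 members the non-induced and induced libraries did not overlap, as was true of 63.2% of all genes. The median log2 fold change was 1.60 over the 8 members and -0.01 over all genes tested. AREG passed the filter only through its level in 4OHT-treated cells, and ERBB3 only through its level in non-induced cells. These counts and this median therefore describe the tested members and are no test of the family. In bulk RNA, fewer cells that express a gene and less of its RNA per cell cannot be told apart. An exact permutation test on 3 against 3 libraries cannot give a p under 0.1 and is not quoted.

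**Figure D1:**
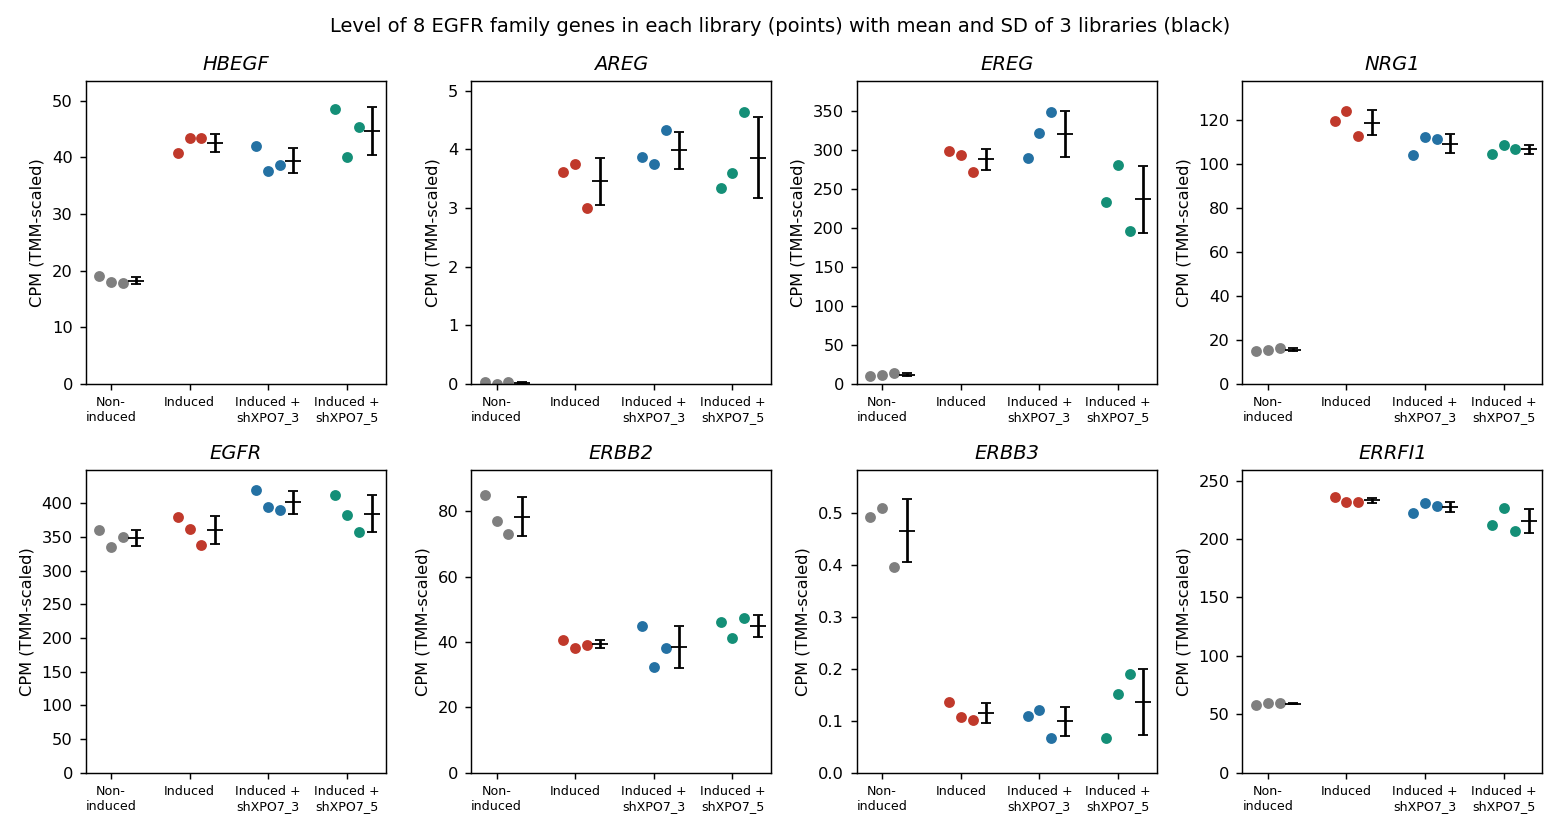
Levels of the 8 members tested in each library, in CPM after TMM scaling on a linear axis from 0, with points for single libraries and black marks for the mean and SD of 3. The points of AREG, EREG, NRG1, HBEGF and ERRFI1 in 4OHT-treated cells all lie above those of non-induced cells, those of ERBB2 and ERBB3 all lie below, and those of EGFR overlap between non-induced and induced cells.

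Among the ligands, AREG (ENSG00000109321), encoding amphiregulin, went from near absence to a low level. The 3 non-induced libraries held 1, 0 and 1 counts (replicates T, A and C), which is 0 to 0.03 CPM. In induced cells AREG stood at 3.61, 3.76 and 3.004 CPM (T, A and B), from 106 to 149 counts a library. So the gene was detected in every induced library and was close to the limit of detection without 4OHT. The 387 counts of the induced group against 2 of the non-induced group gave a depth-scaled ratio of 184, with an exact 95% interval from 50.6 to 1526 that covers counting error only. The fitted log2 fold change was 7.31 ± 0.35 (SE, edgeR adjusted p = 5.67e-09), the 20th highest of all genes tested, but its size depends on the prior count added to such low values. AREG passed the filter only through the 4OHT-treated groups, where it was higher. This p-value and this rank are therefore no independent support for the rise. The older build used for counting carries a near-identical copy of AREG that RefSeq now lists under the same gene (as AREGB), and how reads matching both places were counted is not stated in the sources used here. The level of AREG is therefore uncertain.

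EREG (ENSG00000124882), encoding epiregulin, showed the next largest rise and reached a much higher level. It stood at 9.97, 10.9 and 13.7 CPM in the non-induced libraries and at 298, 293.9 and 272 CPM in the induced ones. Every induced library lay far above every non-induced one. The log2 fold change was 4.64 ± 0.16 (SE, edgeR adjusted p = 2.61e-10), the 72nd highest of all genes tested, a 25.0-fold rise.

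NRG1 (ENSG00000157168, chromosome 8), encoding neuregulin 1, was at 15.1, 15.2 and 16.3 CPM without induction and at 119.8, 124 and 113 CPM with it. The values within each group were tight, and the groups stood far apart. The log2 fold change was 2.93 ± 0.07 (SE, edgeR adjusted p = 2.80e-11), or 7.64-fold. Of the receptors that neuregulin binds, ERBB3 was near the limit of detection and ERBB4 was not tested for want of counts, with 0 to 5 counts a library.

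HBEGF (ENSG00000113070, chromosome 5, 140332843 to 140346631), encoding the heparin-binding ligand, had the smallest rise of the 4. It was at 19.0, 17.9 and 17.8 CPM in non-induced cells and at 40.8, 43.4 and 43.4 CPM in induced cells. The groups were tight and did not overlap. The log2 fold change was 1.22 ± 0.08 (SE, edgeR adjusted p = 1.33e-07), or 2.33-fold.

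To compare the ligands with each other, their CPM were divided by the length of their exons in kilobases (the union of all annotated exons). The summed level of the member ligands rose from 9.44 ± 0.29 CPM per kilobase (SD, n = 3) in non-induced cells to 77.1 ± 2.87 in induced cells. Ligand genes outside the members are not in this sum or in the shares below. Of those, EGF averaged 0.35 CPM per kilobase in non-induced and 0.13 in induced cells. The make-up of the sum changed as well. HBEGF held 64.0% ± 3.42 of the sum in non-induced cells, EREG 21.3% ± 3.02, NRG1 14.5% ± 0.32 and AREG 0.13% ± 0.11. In induced cells EREG held 65.4% ± 1.02, HBEGF 18.3% ± 1.14, NRG1 13.6% ± 0.21 and AREG 2.71% ± 0.22. HBEGF was the leading ligand transcript before induction and EREG after it, also when the longest coding transcript was used as the length, with 59.8% for HBEGF before and 60.5% for EREG after. The places below the first depend on the length. With the longest coding transcript NRG1 (20.5%) and EREG (19.5%) stood close together in non-induced cells, and NRG1 (19.4%) came before HBEGF (17.3%) in induced cells. These shares describe transcripts, not released ligand.

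**Figure D2:**
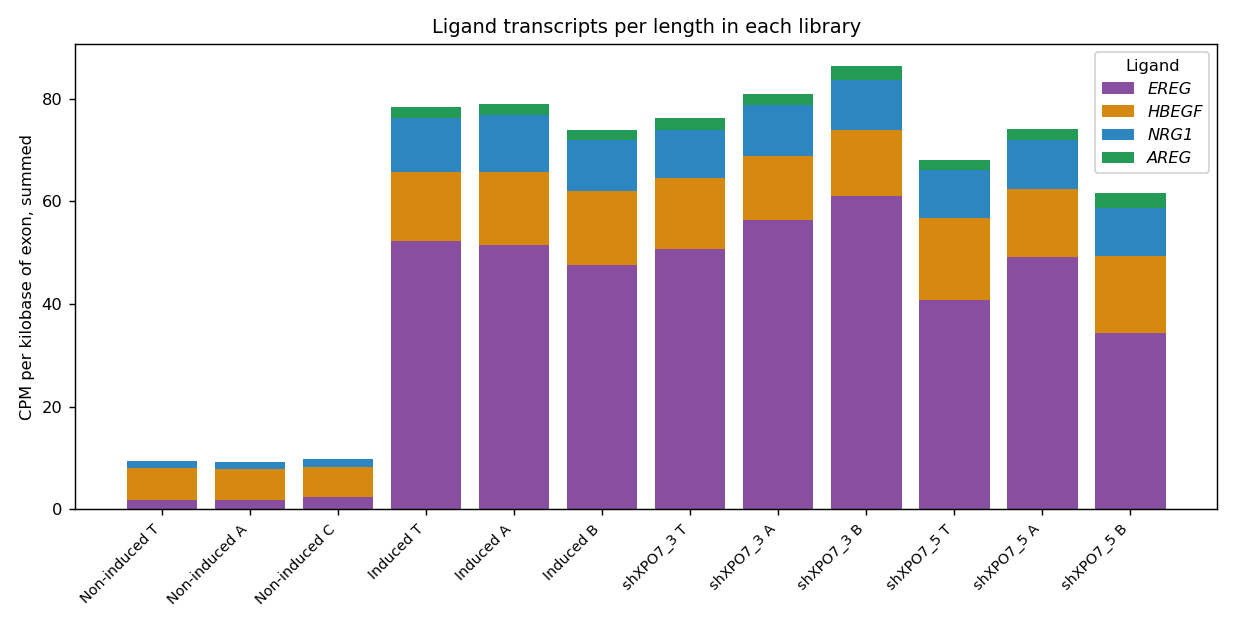
Ligand transcripts per length in each of the 12 libraries, as stacked bars of CPM per kilobase of exon from 0 for EREG, HBEGF, NRG1 and AREG (TGFA and BTC are too low to draw). HBEGF makes up most of each short non-induced bar, and EREG makes up more than 55% of each of the 9 bars of 4OHT-treated cells.

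Among the receptors, ERBB2 and ERBB3 fell and EGFR was not called. EGFR (ENSG00000146648, chromosome 7, 55019021 to 55211628), the receptor for most of the ligands, was at 360.1, 336 and 349 CPM in non-induced cells and at 379.9, 362 and 338 CPM in induced cells. These ranges overlap, and the log2 fold change was 0.05 ± 0.07 (SE, 95% CI -0.10 to 0.20, edgeR adjusted p = 0.590), so a change of more than about 0.20 on the log2 scale in either direction lies outside the interval. After a correction for the GC content and length of transcripts the value was 0.17 (adjusted p = 0.035) and EGFR was called, whereas upper-quartile scaling turned it to -0.05, so no direction is given for this receptor. A short antisense gene, EGFR-AS1, shares 186 bases with EGFR exons and held 31 counts in all 12 libraries.

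ERBB2 (ENSG00000141736, chromosome 17, 39687914 to 39730426), the receptor without a ligand, was at 84.8, 77 and 73.1 CPM in non-induced cells and at 40.5, 38.2 and 39.2 CPM in induced cells. The induced libraries all lay below the non-induced ones and close to each other. The log2 fold change was -0.995 ± 0.11 (SE, edgeR adjusted p = 1.12e-05). ERBB2 exons overlap those of MIEN1 over 571 bases and of PGAP3 over 194 bases on the other strand, and since the strand setting of the counting is not given, some reads may belong to those genes. Per kilobase of exon, EGFR exceeded ERBB2 by a ratio of 3.68 ± 0.23 (SD, n = 3) in non-induced cells and 7.56 ± 0.39 in induced cells (2.18 and 4.47 with the longest coding transcript). The ratio was higher in each induced library than in each non-induced one with either length.

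ERBB3 (ENSG00000065361, chromosome 12, 56076799 to 56103505), a neuregulin receptor with little kinase activity of its own, was barely expressed. It held 16, 21 and 14 counts in the non-induced libraries (0.49, 0.51 and 0.40 CPM) and 5, 3 and 5 counts in the induced libraries (0.14, 0.11 and 0.10 CPM). The induced counts were all lower, but they lie near the 3 counts that a count of 0 allows. The log2 fold change was -2.01 ± 0.35 (SE, edgeR adjusted p = 4.08e-04). ERBB3 passed the filter only through the non-induced group, where it was higher, so this p-value is no independent support for the fall. The summed level of the 6 epithelial markers, 2 of which passed the filter, moved the same way, from 6.24 to 6.85 CPM in non-induced cells to 1.72 to 2.10 CPM in induced cells, and most of that sum was CLDN4, while CDH1 stood at 0.09 and 0.11 CPM. The summed fibroblast and endothelial markers were also lower in induced cells, the latter at 9.03 to 10.02 against 14.4 to 14.8 CPM. The part of these shifts in the fall of ERBB3 and ERBB2 was not tested.

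ERRFI1 (ENSG00000116285, chromosome 1, 8004404 to 8026308), the inhibitor, also known as MIG6, rose with the ligands. It was at 58.3, 59.4 and 59.4 CPM in non-induced cells and at 236, 232 and 232 CPM in induced cells. Neither group spread by more than a few CPM, and the groups did not approach each other. The log2 fold change was 1.98 ± 0.06 (SE, edgeR adjusted p = 8.08e-11), or 3.95-fold. Per kilobase of exon ERRFI1 went from 14.1 ± 0.16, below the 27.8 ± 0.98 of EGFR, to 55.7 ± 0.56, above the 28.8 ± 1.66 of EGFR, and the same order held with the longest coding transcript (19.0 against 35.5 before and 75.1 against 36.7 after).

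**Figure D3:**
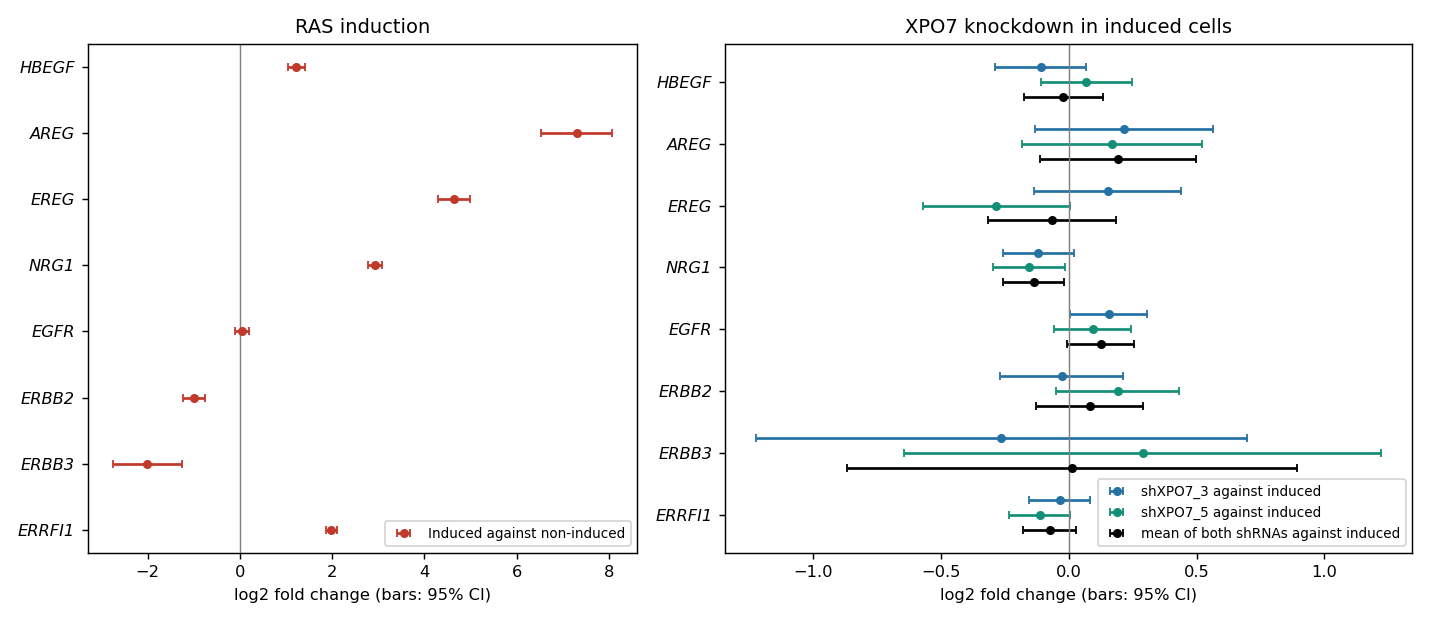
Log2 fold changes of the 8 members with 95% confidence intervals from the edgeR fit, for RAS induction (left) and for XPO7 knockdown in induced cells (right, where the mean of both shRNAs is in black). The axes differ in scale. On the left 7 intervals lie clear of 0, from -2.01 for ERBB3 to 7.31 for AREG, and on the right the points lie between -0.28 and 0.29.

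A list of 34 other genes of the pathway, taken from general knowledge of the family, gave a mixed picture. Of these, 29 passed the filter and 17 were called on RAS induction, 11 higher and 6 lower, with a median log2 fold change of 0.07. Their share of calls stands close to the 50.9% of all genes. The 5 without enough counts were the ligand genes EPGN, NRG2, NRG3 and NRG4 and the receptor gene ERBB4.

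EGF, the ligand that names the family, was the 1 other ligand tested. It fell from 2.15 ± 0.30 to 0.79 ± 0.30 CPM (SD, n = 3), and its log2 fold change was -1.42 ± 0.30 (SE, edgeR adjusted p = 0.00193). Of the 7 genes of ligand processing, ADAM12, RHBDF1 and TIMP3 were higher and none was lower. RHBDF1, an inactive rhomboid protein that escorts ADAM17 to the cell surface, rose by 0.85 ± 0.10 on the log2 scale, whereas the sheddase genes ADAM17 and ADAM10 were not called, at 0.11 (95% CI -0.11 to 0.33) and 0.02 (95% CI -0.46 to 0.50). Of the other ADAM genes, ADAM12 rose by 0.48 ± 0.07 (SE, edgeR adjusted p = 9.71e-05) and ADAM9 was not called.

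Of the 7 adaptor genes, SHC1 and GRB2 rose and EPS8 and GAB1 fell. SHC1, which links the activated receptors to GRB2, went from 463 ± 44.1 to 731 ± 25.3 CPM (SD, n = 3), or 0.66 ± 0.09 (SE) on the log2 scale. EPS8, a receptor substrate that regulates actin, changed by -1.05 ± 0.17 and the docking protein gene GAB1 by -0.83 ± 0.16 (SE). Adaptor genes were therefore found in both directions.

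Of the 14 genes of negative regulation and trafficking, 6 were higher and 3 lower. SH3KBP1, an adaptor that works with CBL in taking receptors into the cell, rose from 125 ± 2.06 to 293 ± 7.84 CPM (log2 fold change 1.23 ± 0.06, SE, edgeR adjusted p = 5.54e-09). CBLB, a ubiquitin ligase for the receptors, rose by 0.71 ± 0.09. LRIG1, a membrane protein that promotes loss of the receptors, fell from 137 ± 11.2 to 74.9 ± 3.78 CPM (log2 fold change -0.87 ± 0.07, SE, edgeR adjusted p = 8.35e-07). The other genes of these 14 that were called were CBL, RNF41, PTPN1 and STAM, which rose, and LRIG3 and SOCS5, which fell.

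**Figure D4:**
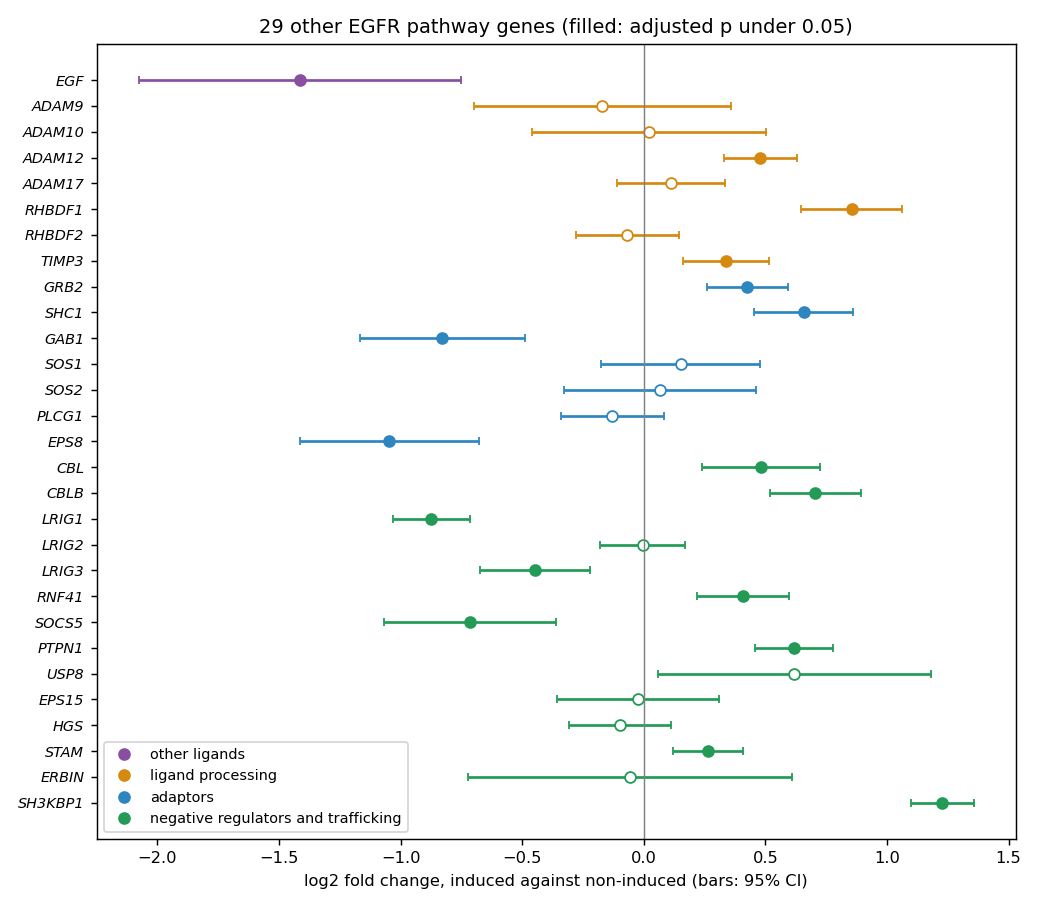
Log2 fold change of induced against non-induced cells for the 29 other pathway genes tested, with 95% confidence intervals, coloured by role; filled points passed an adjusted p of 0.05. Values run from -1.42 for EGF to 1.23 for SH3KBP1, with filled points on both sides of 0.

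On XPO7 knockdown no member was called by the same test. With shXPO7_3, 0 of the 8 members were called, where 0.124% of all genes were, and 1 (EGFR) had an unadjusted p under 0.05. With shXPO7_5 it was also 0 (0.589% of all genes), with 1 (NRG1) at an unadjusted p under 0.05. The mean of both shRNAs gave 0 called (0.556%) and 1 at that unadjusted p (NRG1). The difference between the shRNAs gave 0 (0.0131%) and 2 (HBEGF and EREG). Of all 15284 genes tested, 979, 3302, 1825 and 1819 had an unadjusted p under 0.05 in these comparisons, in the order given. The 1 or 2 members at that level are therefore not read as changes. DESeq2 likewise called 0 members in each of these comparisons. Calls were rare among all genes in these comparisons, so the counts of 0 say little about the members, and the intervals say more.

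For the members induced by RAS, the intervals for the mean of both shRNAs lay well below the size of the rise. The mean of both shRNAs against induced cells gave 0.19 for AREG (95% CI -0.11 to 0.50), -0.07 for EREG (-0.31 to 0.18), -0.02 for HBEGF (-0.17 to 0.13) and -0.08 for ERRFI1 (-0.18 to 0.03) on the log2 scale. NRG1 changed by -0.14 (-0.26 to -0.02, edgeR adjusted p = 0.352). Set beside the rises of 1.22 to 7.31 on RAS induction, the widest of these intervals ended within 0.50 of 0 in this fit. They bound the mean and not each shRNA, since opposite shifts cancel in a mean. With shXPO7_3 and shXPO7_5 the values were 0.15 and -0.28 for EREG and -0.11 and 0.07 for HBEGF. With the GC and length correction the value for AREG moved to 0.37 for both shRNAs and to 0.49 for shXPO7_5, from 0.17, without passing the threshold (adjusted p = 0.283 and 0.200). For the receptors the values were 0.12 for EGFR (-0.01 to 0.26), 0.08 for ERBB2 (-0.13 to 0.29) and 0.01 for ERBB3 (-0.87 to 0.89), the last of which was too low in counts to bound.

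NRG1 and ERRFI1 were the 2 members for which all 6 knockdown libraries lay below all 3 induced ones. NRG1 was at 104, 112 and 112 CPM with shXPO7_3 and at 105, 109 and 107 CPM with shXPO7_5, against 113 to 124 CPM in induced cells. ERRFI1 was at 222, 231 and 228 CPM with shXPO7_3 and at 212, 227 and 207 CPM with shXPO7_5, against 232 to 236 CPM in induced cells. The shifts were small, and for each gene less than 1 CPM separated the nearest libraries. Both genes were singled out for this separation, so it is given as a description, and edgeR's adjusted p was 0.352 for NRG1 and 0.526 for ERRFI1. Of all genes tested, 3.45% were lower without overlap in this way.

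With single shRNAs, 3 members did not overlap with induced cells for shXPO7_3 (14.6% of all genes), namely NRG1 and ERRFI1, which were lower, and EGFR, which was higher. EGFR was at 420.1, 394 and 389 CPM with shXPO7_3 and at 412, 383 and 357 CPM with shXPO7_5. The log2 fold changes were 0.16 ± 0.07 (SE, edgeR adjusted p = 0.747) and 0.09 ± 0.07 (adjusted p = 0.378). For shXPO7_5, 3 members did not overlap (26.8% of all genes), NRG1 and ERRFI1 below and ERBB2 above the induced libraries, with ERBB2 at 46.2, 41.1 and 47.3 CPM. Its log2 fold change was 0.19 ± 0.11 (SE, edgeR adjusted p = 0.286), and 0.02 with the GC and length correction. ERBB2 transcripts have the highest mean GC content of the members, 59.3%. The same correction left EGFR at 0.15 with shXPO7_3 and brought it to 0.03 with shXPO7_5. With shXPO7_3, ERBB2 stood at 45.01, 32.3 and 38.3 CPM, on both sides of the induced values.

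HBEGF and AREG overlapped with the induced libraries for both shRNAs. HBEGF stood at 41.9, 37.6 and 38.7 CPM with shXPO7_3 and at 48.4, 40.0 and 45.3 CPM with shXPO7_5. AREG stood at 3.87, 3.74 and 4.33 CPM with shXPO7_3 and at 3.33, 3.59 and 4.64 CPM with shXPO7_5. All 12 values lay above the non-induced range of the gene.

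EREG was the member on which the 2 shRNAs stood furthest apart after ERBB3. It was at 290.1, 322 and 349 CPM with shXPO7_3 and at 233, 281 and 196 CPM with shXPO7_5, and these libraries did not overlap (9.71% of all genes did not, between the shRNAs). Each shRNA stood on its own side of the induced mean of 288 CPM. Between the shRNAs the log2 difference was -0.44 ± 0.13 (SE, edgeR adjusted p = 0.388). Against induced cells it was 0.15 ± 0.13 for shXPO7_3 (adjusted p = 0.999) and -0.28 ± 0.13 for shXPO7_5 (adjusted p = 0.235). Without replicate A of shXPO7_5 the latter became -0.42 and passed the threshold (adjusted p = 0.039). In that fit 3634 of all genes were called, against 90 with every library kept.

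The EREG values tended to be lower in libraries with a higher GC lean, but replicate T of shXPO7_3, with a high lean, stood at 290.1 CPM. This lean was taken for each library as the Spearman rho across 14864 genes between the log ratio to the induced mean and transcript GC content. It was 0.59, 0.12 and 0.76 in replicates T, A and B of shXPO7_5, 0.55, -0.34 and -0.23 in those of shXPO7_3 and -0.17, -0.20 and 0.30 in those of induced cells. EREG transcripts have a mean GC content of 39.2%, the lowest of the members, and replicates T and B of shXPO7_5 held both the strongest lean and the lowest EREG level. With the GC and length correction, the difference of shXPO7_5 from induced cells turned to 0.08 (edgeR adjusted p = 0.560), and that between the shRNAs shrank to -0.12 (adjusted p = 0.539). In replicates T and B of shXPO7_5 the lean and the shRNA go together, so the correction could also remove an effect of the shRNA. The part of each in the EREG values was not tested. The rise of EREG on RAS induction kept to 4.53 or more on the log2 scale under every alternative run.

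**Figure D5:**
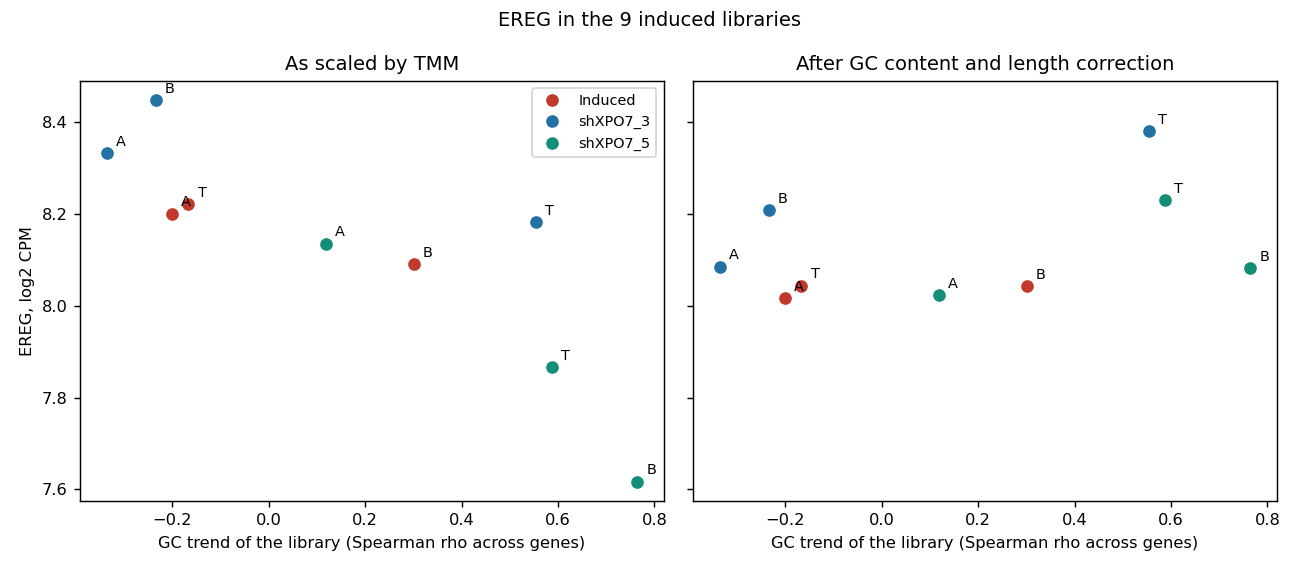
EREG level (log2 CPM) in the 9 libraries of 4OHT-treated cells against the GC lean of each library (Spearman rho across genes, no unit), before (left) and after (right) the correction for GC content and length. On the left the libraries with a lean of 0.59 and 0.76 are lowest, and on the right they lie among the others.

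None of the 29 other pathway genes was called with either shRNA, for their mean or between the shRNAs. Without replicate A of shXPO7_5 the count for shXPO7_5 became 9, of which 7 were lower, when 3634 of all genes were called instead of 90.

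Last, the genes whose levels ran most like each member over the 12 libraries were listed by Pearson's r of log2 CPM among the 10569 genes whose log2 CPM averaged 2 or more, as a description. For the rising members the closest were EGR3 for AREG, SLC16A6 for EREG, CDKN2B for NRG1 and ERRFI1, and TRNP1 for HBEGF, all with r of 0.997 or more. The next were CHST11 and ADGRE2 for AREG, TFPI2 and STC1 for EREG, HTR7 and CXCL8 for NRG1, STC1 and BPGM for ERRFI1, and YRDC and HARS1 for HBEGF. These values rest on the gap between 3 non-induced and 9 induced libraries, which any induced gene shares, and 675 to 742 genes reached an r of 0.95 with each of these 5 members. For ERBB2 the closest were EEF2K, HDAC6 and COL16A1, with 556 genes at 0.95 or more, and for ERBB3 PARP3, HOXB3 and SLC25A29, with 28. EGFR overlapped between non-induced and induced libraries and so lacks that gap. With it 0 genes reached 0.95, and its closest were NID1 at 0.94, MT-ATP8 at 0.86 and ZNF425 at 0.86. How many other genes have no such partner was not counted.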

How the data were processed

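RNA-seq counts of 12 libraries in 4 groups were analysed. The authors deposited raw counts, the number of reads assigned to each gene in each library. CASAVA 1.8.4, TopHat2 2.0.11 and featureCounts 1.18.0 appear in the submitters' processing notes, with hg19 and GRCh37 as builds. Which annotation was used, whether strand was considered and what happened to reads with more than 1 match is not given in the sources used here. All 92 spike-in entries held 0 counts and were dropped. Libraries held 28534141 to 60397769 counts, and no pair within a group was alike enough to be 1 library deposited again.

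The counts were fitted in R 4.3.3 by edgeR 4.0.16 (filterByExpr given the groups, TMM, quasi-likelihood test) to 15284 genes in the 12 libraries together, with group as the only term, as no test for these counts was found in the text of the study used here. Benjamini-Hochberg adjustment was made over all of these genes, and the threshold was 0.05. Lengths, GC content and positions came from GENCODE release 29 (GRCh38), matched by Ensembl identifier because counting used GRCh37, and promoters from RefSeq (GRCh38.p14).

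The alternatives tried were scaling by RLE or by upper quartile, keeping every gene with 1 count, requiring 1 CPM in 6 or more libraries, a block for the replicate letter, fitting only the groups compared, DESeq2 1.42.0, calls restricted to log2 fold changes of 1 or more, an offset for GC content and length (a spline with 5 degrees of freedom in each library, where 97.3% of genes had both values), and leaving out each library in turn. The scripts were tested on simulated counts. The text names the 10 members, up to 4 called pathway genes with the largest rise and up to 4 with the largest fall per comparison, the 3 genes most like each member, and XPO7. Other names were chosen after their values were seen. The members and lists were chosen with earlier results of these data known.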

Additional observations from a re-analysis of the deposited data

How the results depend on the processing

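The 7 members called on RAS induction were called under every alternative, with these exceptions. ERBB3 was removed by the filter of 1 CPM in at least 6 libraries and ERBB2 was lost under a log2 fold change of at least 1, each leaving 6. The GC and length correction added EGFR (log2 fold change 0.17), giving 8, while calls among all genes went from 7777 to 9651. Upper-quartile scaling moved the median of all genes on induction to -0.10. Counts of other pathway genes moved from 17 to 3 under a log2 fold change of at least 1 on induction (EGF and EPS8 lower, SH3KBP1 higher). They moved from 0 to 2 for shXPO7_3 with the GC and length correction (ADAM12 higher, LRIG1 lower). For both shRNAs they moved from 0 to 1 with DESeq2 and with the GC and length correction (ADAM12). Calls among all genes rose as well, from 19 to 300 for shXPO7_3 with the correction. For both shRNAs they rose from 85 to 247 with DESeq2 and to 532 with the correction. With 1 library left out the count of pathway genes ran from 0 to 9 for shXPO7_5 and from 0 to 1 for both shRNAs (LRIG3). That of members ran from 0 to 1 for shXPO7_5 (EREG, -0.42). Each change came with leaving out replicate A of shXPO7_5. Without that library, 3634 of all genes were called for shXPO7_5 instead of 90, and 191 for both shRNAs instead of 85. The cause was not tested.

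Some values changed sign, none of them called in the main fit or where the sign changed. They were not all near 0 in the main fit, with -0.28 for EREG with shXPO7_5. ERBB3 stood there at -0.26 with shXPO7_3 and at 0.29 with shXPO7_5. Upper-quartile scaling gave -0.051 for EGFR on induction, 0.0084 for HBEGF with both shRNAs, and 0.0041 for AREG and 0.012 for NRG1 between the shRNAs. The GC and length correction gave 0.079 for EREG with shXPO7_5, 0.0053 for HBEGF, 0.14 for EREG, -0.016 for ERBB2 and -0.0077 for ERBB3 with both shRNAs, and 0.23 for AREG between the shRNAs. With 1 library left out, ERBB2 ran from -0.16 to 0.083 and ERBB3 from -0.42 to 0.011 with shXPO7_3, ERBB3 from -0.034 to 0.58 with shXPO7_5, HBEGF from -0.052 to 0.016 and ERBB3 from -0.15 to 0.16 with both shRNAs, and AREG from -0.20 to 0.047 between the shRNAs.

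The replicate letters were not used to pair the libraries in the main fit. Same-letter correlations of deviations from the group mean ran from -0.23 (replicate B of shXPO7_3 and shXPO7_5) to 0.59 (replicate T of non-induced and shXPO7_3). With so few libraries these values cannot decide whether the letters mark pairs. The replicate block gave 7 members and 19 pathway genes on induction, when 7987 of all genes were called. It gave 0 of either in each knockdown comparison. With 3 libraries a group, small shifts of the members remain within the intervals given, and ERBB3, TGFA and BTC are limited by counts.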
